A study of Mus musculus with 6 samples.

Results

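The genes described here encode the enzymes of sterol and fatty acid synthesis together with their regulators, the targets and machinery of the sterol regulatory element-binding proteins (SREBPs). The set holds 35 genes of the 17217 rows of the deposited table, taken by symbol from a list written for this work, and it is not the whole pathway. The sterol arm has 19 genes, the fatty acid arm 10, and 6 genes are regulators or a sterol carrier. All 35 had a row, and all 35 passed the filter of a mean of at least 1 TPM (a relative transcript abundance scaled by gene length and library). The values came from bulk RNA sequencing of mouse bone marrow-derived macrophages, cells grown from marrow with the growth factor M-CSF. The Control group (3 libraries) carried wild-type Cd74 and the knockout group (3 libraries) is labelled as a knockout of Cd74, whose product chaperones MHC class II molecules as the invariant chain and also binds the cytokine MIF. Per the labels, marrow came from mice 8 weeks old, M-CSF was given at 30 ng/mL, and every library was treated with lipopolysaccharide (LPS), a bacterial cell wall component, at 100 ng/mL for 24 h. No untreated library is part of the comparison, and the mice of the protocol are called wild-type for each of the 6 libraries, so genotype rests on the titles and genotype labels. The labels place the Control libraries in batch 1 and the knockout libraries in batch 2. Batch and genotype therefore cannot be told apart in any result here.

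SREBPs are made as membrane proteins of the endoplasmic reticulum. SCAP escorts them to the Golgi, where proteases release the part that enters the nucleus, and INSIG proteins hold the complex back when sterols are plentiful. The form encoded by Srebf2 acts mainly on sterol synthesis and that encoded by Srebf1 mainly on fatty acid synthesis. In macrophages this machinery is tied to inflammatory activation, since LPS and interferon change both sterol and fatty acid production.

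Cd74 itself had levels of 632, 593 and 594 TPM in the Control group and 65.3, 64.6 and 63.1 TPM in the knockout group. The direction goes with the labels, but Cd74 was still detected in every library labelled as a knockout. In addition, the knockout values of Cd74 were whole reads in 0 of 3 libraries and its neighbours in a table ordered by ratio stood at a log2 ratio of -1.24 where Cd74 stood at -3.24, so the size of that difference is uncertain. No gene of the set shared this fault: 0 of 35 departed from their neighbours, and all 6 values were whole reads at an annotated gene length for 34. Fdft1 was whole at 4116 bp in place of its annotated 4227 bp. Recovered depth was 36226030 to 57726377 reads per library. Markers of macrophages were present, with 7 of 8 listed genes at a mean of at least 1 TPM and a summed level of 7703 to 8345 TPM in Control and 10848 to 12272 TPM in knockout libraries, with Lyz2, Itgam and Csf1r higher and Adgre1 lower. The summed level of 6 adipocyte markers, of which Lep had no row and Cfd was the largest, was 1.04 to 2.14 TPM in Control and 0.317 to 9.56 TPM in knockout libraries. Only 1 of them reached the mean of 1 TPM needed for a test, and it was not called. Stromal, dendritic and erythroid lists, each with 3 of 6 genes with a row, summed to at most 2.41 TPM in any library. In these lists 0 stromal, 1 dendritic and 0 erythroid genes reached the mean needed for a test. The dendritic gene was not called, and the genes below that mean could not be called. Of the T cell markers 0 of 6 had a row. The B cell list (3 of 6 genes with a row, 8.14 to 10.3 against 12.0 to 12.7 TPM, with Ighm higher), the neutrophil list (2 of 6, 11.9 to 13.9 against 6.90 to 9.11 TPM, with Csf3r lower) and the mast cell and basophil list (1 of 6, Hdc itself, 21.9 to 31.2 against 4.37 to 9.03 TPM and lower) each held 1 called gene. Their part in the results below was not tested, and in bulk RNA fewer cells of a type and less RNA per cell cannot be told apart.

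Most of the 35 genes were higher in the knockout libraries. Groups were compared by a two-sided limma test of log2(TPM + 1), calling a gene at a Benjamini-Hochberg adjusted p under 0.05 among 13034 tested rows. By this test 27 of the 35 rose, 1 fell and 7 were not called, while 18.5% of all tested rows rose and 10.1% fell. Knockout values lay above all Control values for 29 genes, against 30.2% of tested rows, and below them for 1, against 19.8% of rows. The median log2 fold change over the 35 was 0.47, and over all tested rows it was 0.04. Direction of calls depends in part on scaling: 64.7% of calls were higher on the deposited scale, and 51.5% once libraries were rescaled by the median of ratios, which moved the median of all rows by -0.04. After that scaling 25 of the 35 rose and 1 fell, against 14.0% and 13.2% of rows, and Dhcr7 and Scap were no longer called.

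Knockout replicate 3 stood apart from the other libraries in these genes. It held the highest of the 6 values for 29 of the 35, as it did for 31.1% of all tested rows. Control replicate 1 held the lowest for 22 of the 35. Its share over all tested rows was not counted, and it had the fewest recovered reads (36226030). Relative to the mean of the Control libraries, the median member stood at 0.38 and 0.38 on the log2 scale in knockout replicates 1 and 2 and at 0.60 in knockout replicate 3. Without knockout replicate 3, 25 members rose and 1 fell, against 16.1% and 8.87% of rows, and Fdps and Scap were no longer called. Whether the replicates are separate animals or cultures is not stated in the labels, and the spread behind each p-value may thus be technical alone.

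**Figure D1:**
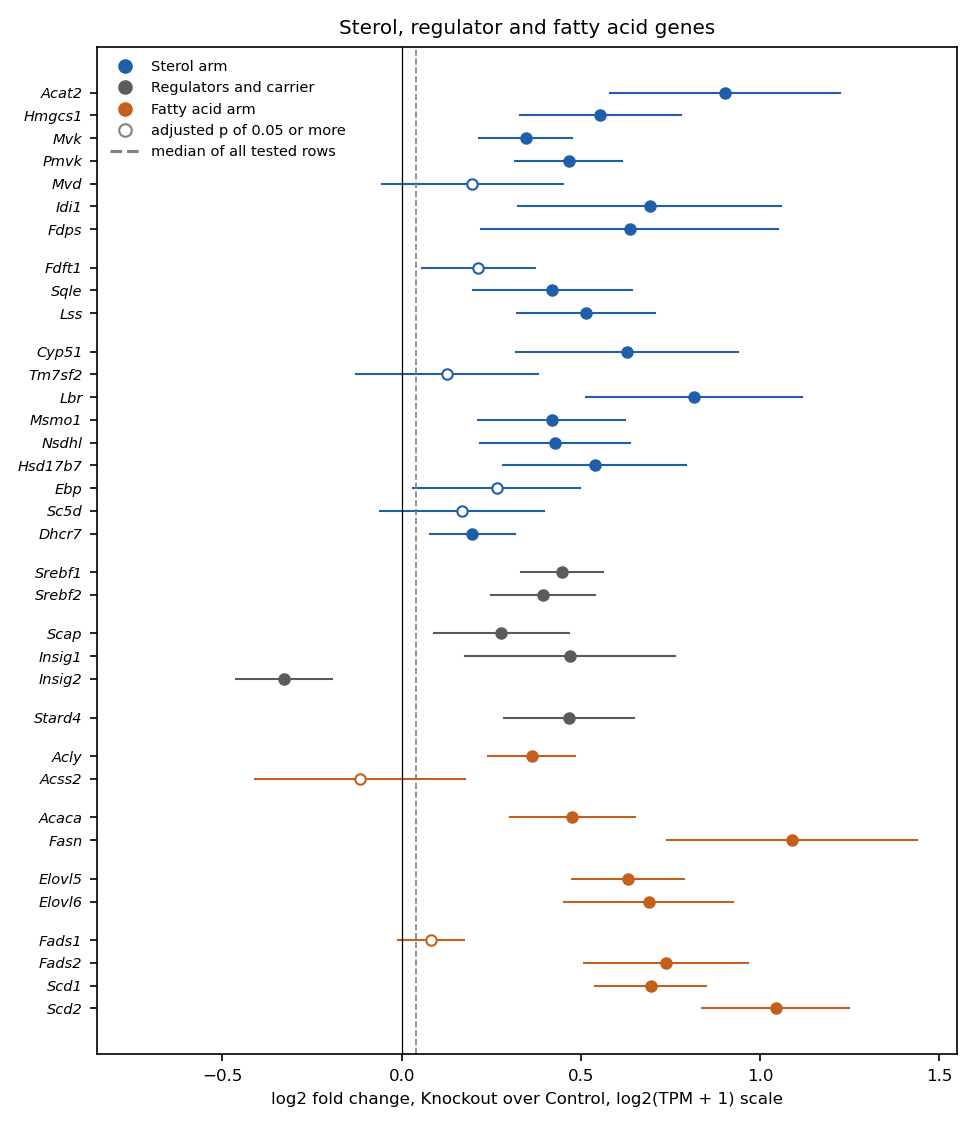
Log2 fold change of each of the 35 genes, Knockout over Control on the log2(TPM + 1) scale, with its 95% confidence interval from limma. Filled points are called genes, the dashed line is the median of all tested rows (0.04), Acss2 and Insig2 lie to the left of 0, and Fasn and Scd2 lie farthest to the right.

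**Figure D2:**
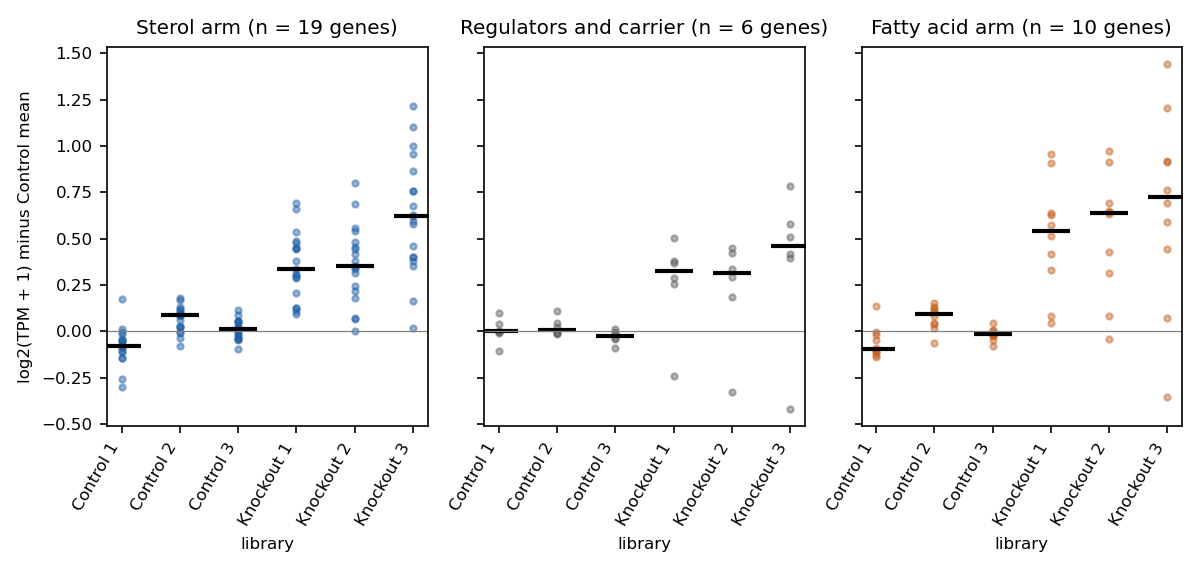
Level of each gene in each library as log2(TPM + 1) minus its mean over the Control libraries, by arm, with the median gene as a black bar. The median of the fatty acid arm lies above that of the sterol arm in every knockout library, and knockout replicate 3 is the highest library in all 3 panels.

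Promoters of 3 genes are printed to show where words that SREBPs and their partners are known to read were or were not found. A link between these words and the changes in level was not tested. Hmgcs1 is shown because it held the one match to the sterol element searched for, Srebf2 as the regulator gene of the sterol arm, and Fasn as the gene with the largest rise in the set. Promoter windows (250 bases before to 50 bases after the start) came from RefSeq on the GRCm38.p6 build and matched 28 of the 35 symbols. The submitters' notes name another build, GRCm39, and the deposited table was matched to these windows by symbol alone. Printed are the 250 bases before the start, 5′ to 3′ on the gene's strand, for Hmgcs1 at chr13:119690101-119690350 (plus strand), Srebf2 at chr15:82147019-82147268 (plus strand) and Fasn at chr11:120824548-120824797 (minus strand). Capitals mark CCAAT on either strand (ATTGG when read on the other strand), the SRE-like word in Hmgcs1, and the word TCACCCC, which is part of it.
Hmgcs1: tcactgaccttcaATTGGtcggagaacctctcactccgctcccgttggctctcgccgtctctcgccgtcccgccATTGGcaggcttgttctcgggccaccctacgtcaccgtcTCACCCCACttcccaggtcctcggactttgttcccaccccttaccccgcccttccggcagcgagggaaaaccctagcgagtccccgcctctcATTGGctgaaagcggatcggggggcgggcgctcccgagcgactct
Srebf2: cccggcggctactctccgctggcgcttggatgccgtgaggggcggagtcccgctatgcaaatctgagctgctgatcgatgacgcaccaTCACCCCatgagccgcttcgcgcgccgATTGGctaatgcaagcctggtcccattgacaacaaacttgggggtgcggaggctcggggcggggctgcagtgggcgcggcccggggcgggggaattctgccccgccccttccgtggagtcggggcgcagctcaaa
Fasn: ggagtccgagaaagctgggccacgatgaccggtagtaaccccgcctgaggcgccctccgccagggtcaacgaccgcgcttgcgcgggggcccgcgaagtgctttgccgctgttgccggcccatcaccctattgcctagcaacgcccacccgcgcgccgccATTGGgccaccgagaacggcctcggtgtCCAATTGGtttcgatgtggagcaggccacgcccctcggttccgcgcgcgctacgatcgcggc

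In the Hmgcs1 promoter the SRE-like word TCACNCCAC, here TCACCCCAC, ran from -137 to -129 relative to the start, between CCAAT words at -237 and -176 on one side and -45 on the other. Of the 28 matched genes 1 (3.57%) held TCACNCCAC on either strand, against 1.44% of all 27025 genes with a window. Srebf2 held the shorter word TCACCCC from -162 to -156, ahead of a CCAAT word at -135. That shorter word was searched after the sequences were seen, and it lay in 3 of 28 matched genes (Hmgcs1, Srebf2 and Insig2) and in 5.61% of all genes. Of these 3 genes Hmgcs1 and Srebf2 rose in the knockout libraries, while Insig2 fell. The Fasn window held CCAAT words at -90, -62 and -59, the last pair overlapping, and no TCACNCCAC. CCAAT, the word of the SREBP partner NF-Y, was in 23 of 28 matched genes (82.1%) against 41.1% of all genes, among them 15 of 16 sterol arm genes and 4 of 7 fatty acid arm genes. GGGCGG, the word of the partner Sp1, was in 23 of 28 (82.1%) against 38.2%. The E-box CACGTG was in 6 of 28 (21.4%) against 8.09%. The 27025 genes were not limited to genes detected in these libraries, while all members passed the filter on expression. The shares are thus not a like comparison, and no excess of any word was tested. Matches were counted on both strands, and a match describes letters, not binding. The factor genes were not called: Nfya stood at 0.09, Nfyb at -0.07, Nfyc at 0.26 and Sp1 at 0.03 on the log2 fold change scale, with adjusted p between 0.0858 and 0.656.

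In the sterol arm 14 of 19 genes rose and 0 fell, against 18.5% and 10.1% of all tested rows. The median log2 fold change of the arm was 0.43, with a range of 0.13 to 0.90. All 19 fold changes were above 0, as were 7326 of the 13034 over all tested rows. Values of each group are given below in the order of replicates 1, 2 and 3. The opening steps, which build acetoacetyl-CoA and carry it through mevalonate to the isoprenoid diphosphates, gave 6 rises among 7 genes. Acat2, the cytosolic thiolase that joins acetyl-CoA units, stood at 35.02, 41.6 and 37.5 TPM in the Control libraries and 61.8, 66.9 and 89.4 TPM in the knockout libraries. It had the largest rise of the arm (1.91-fold in means, log2 fold change 0.90, SE 0.14, adjusted p = 0.00566), and every knockout value lay above every Control value. By sequence 39.1% of the 50-base words of Acat2 also occur in other genes, mainly Acat3, so its reads may have been shared with that copy. Hmgcs1, which makes HMG-CoA and whose promoter is printed above, stood at 39.6, 45.3 and 40.6 TPM in the Control libraries and 57.5, 57.6 and 71.2 TPM in the knockout libraries. Its groups did not overlap (log2 fold change 0.55, SE 0.10, adjusted p = 0.00822).

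Downstream of HMG-CoA, the kinase gene Mvk stood at 23.1, 23.9 and 24.8 TPM in the Control libraries and 29.5, 30.7 and 31.9 TPM in the knockout libraries (log2 fold change 0.35, SE 0.06, adjusted p = 0.00636). The next kinase gene, Pmvk, stood at 32.8, 34.4 and 34.4 TPM in the Control libraries and 44.3, 46.4 and 51.1 TPM in the knockout libraries (log2 fold change 0.47, SE 0.06, adjusted p = 0.00443). Groups did not overlap for either kinase gene, and the Control SDs were 0.872 TPM for Mvk and 0.927 TPM for Pmvk. Mvd, which removes the carboxyl group of mevalonate diphosphate, was not called at 65.5, 54.8 and 54.3 TPM against 63.3, 60.8 and 76.8 TPM (log2 fold change 0.20, SE 0.11, adjusted p = 0.206), and its groups overlapped through Control replicate 1. Idi1, the isomerase of isopentenyl diphosphate, stood at 25.1, 34.1 and 32.1 TPM in the Control libraries and 44.2, 44.4 and 61.4 TPM in the knockout libraries (log2 fold change 0.69, SE 0.16, adjusted p = 0.0176), a call lost without Control replicate 1 (adjusted p = 0.0538). Of the words of Idi1, 25.3% occur in other genes.

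Fdps, which makes farnesyl diphosphate, was the lowest of all 35 genes, at 1.53, 2.53 and 2.37 TPM in the Control libraries and 3.37, 3.57 and 4.66 TPM in the knockout libraries. These values rest on 73 to 330 reads per library, and 26.2% of the gene's 50-base words occur in other genes, mainly the gene model Gm43738 (23.4%). The exons of Fdps overlap those of Gm43738 on the same strand over 26.7% of their length. How shared reads were counted is not given in the sources used here, so the true level of Fdps is uncertain. Knockout values lay above the Control values (log2 fold change 0.64, SE 0.18, adjusted p = 0.0345), but the call was lost without any 1 of Control replicates 1, 2 or 3 or knockout replicates 2 or 3. The other genes of these opening steps stood between 24.0 and 58.2 TPM in Control means. Fdps was thus set apart by its measured level, with the limit just given, and not by direction.

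Squalene is joined from farnesyl units by the product of Fdft1, oxidised by that of Sqle and closed to lanosterol by that of Lss. Fdft1 was not called at 43.8, 43.7 and 44.3 TPM against 47.6, 49.9 and 56.3 TPM (log2 fold change 0.21, SE 0.07, adjusted p = 0.0517), although its groups did not overlap. Its exons overlap those of Ctsb, a lysosomal protease gene on the opposite strand, over 18.3% of their length. Strand use in the counting is not given in the sources used here, so reads within that overlap cannot be assigned to either gene. Sqle stood at 62.3, 70.6 and 65.0 TPM in the Control libraries and 81.4, 83.4 and 102 TPM in the knockout libraries (log2 fold change 0.42, SE 0.09, adjusted p = 0.0172), a call lost without Control replicate 1 or 3. Lss stood at 21.3, 23.5 and 21.5 TPM in the Control libraries and 30.4, 29.8 and 35.8 TPM in the knockout libraries (log2 fold change 0.51, SE 0.08, adjusted p = 0.00641) and kept its call under every alternative run. Knockout replicate 3 was the highest library for all 3 of these genes.

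Of the 9 genes between lanosterol and cholesterol 6 rose, against 18.5% of all tested rows, and 3 were not called. Cyp51, the lanosterol demethylase, stood at 49.1, 53.0 and 53.9 TPM in the Control libraries and 71.3, 73.1 and 102 TPM in the knockout libraries (log2 fold change 0.63, SE 0.13, adjusted p = 0.014), and its call was lost without Control replicate 1 (adjusted p = 0.0534). Lbr, a sterol reductase that is also a receptor for lamin B in the nuclear envelope, stood at 46.5, 56.2 and 52.5 TPM in the Control libraries and 82.0, 83.7 and 112 TPM in the knockout libraries (1.79-fold in means, log2 fold change 0.82, SE 0.13, adjusted p = 0.00616). Tm7sf2, which encodes the other enzyme with the same reductase activity, was low and not called, at 5.15, 5.73 and 5.15 TPM against 6.74, 5.66 and 5.42 TPM (log2 fold change 0.13, 95% confidence interval -0.13 to 0.38). Its values rest on 257 to 532 reads per library, and its exons overlap those of Vps51 on the same strand over 12.1% of their length. Of the 50-base words of Lbr 8.41% occur in other genes, mainly Dnah14. The ratio of Lbr to Tm7sf2, a pair picked after its values were seen, went from 9.68 ± 0.587 to 15.9 ± 4.37 (SD, n = 3 each) and was not tested.

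Msmo1, which starts removal of the remaining methyl groups, stood at 70.4, 80.0 and 74.9 TPM in the Control libraries and 93.1, 96.0 and 114 TPM in the knockout libraries (log2 fold change 0.42, SE 0.09, adjusted p = 0.0138). Nsdhl, the dehydrogenase of the same removal, stood at 37.6, 39.8 and 36.8 TPM in the Control libraries and 48.3, 47.6 and 59.3 TPM in the knockout libraries (log2 fold change 0.43, SE 0.09, adjusted p = 0.014). Its partner reductase Hsd17b7 stood at 33.7, 39.8 and 39.0 TPM in the Control libraries and 52.4, 49.1 and 64.0 TPM in the knockout libraries (log2 fold change 0.54, SE 0.11, adjusted p = 0.0126). The 3 genes of this removal thus had log2 fold changes between 0.42 and 0.54, each with knockout values above all Control values. Msmo1 lost its call without Control replicate 1 and Nsdhl without Control replicate 3, while Hsd17b7 kept its call under every alternative run. Dhcr7, which makes cholesterol from its direct precursor, rose by 0.20 (adjusted p = 0.0269), a call lost under both scalings, with the replicate block and without any 1 of 5 libraries (knockout replicate 3 being the exception). Ebp, a sterol isomerase, and Sc5d, a sterol desaturase, were not called, at log2 fold changes of 0.27 and 0.17 (adjusted p = 0.0847 and 0.231 by limma).

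**Figure D3:**
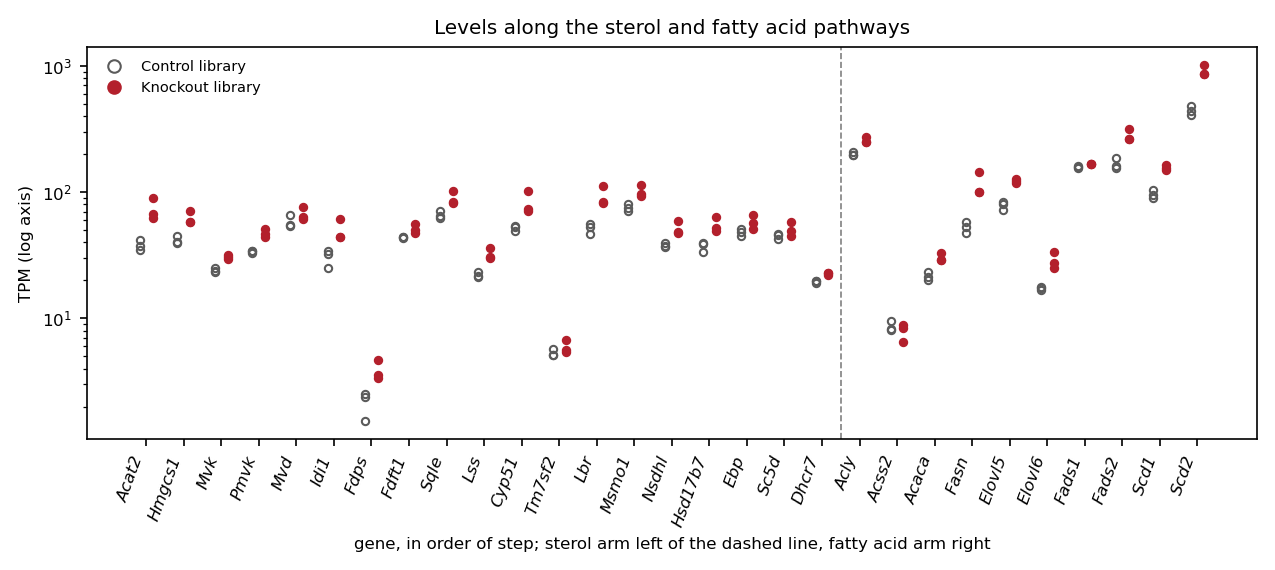
TPM of each sterol and fatty acid gene in each of the 6 libraries, on a log axis and in order of step. Fdps is the lowest gene at 1.53 to 4.66 TPM and Scd2 the highest at 407 to 1017 TPM.

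Among the regulators and the carrier 5 of 6 genes rose and 1, Insig2, fell, against 18.5% and 10.1% of all tested rows. Srebf2 stood at 72.0, 73.9 and 71.8 TPM in the Control libraries and 94.7, 89.2 and 104 TPM in the knockout libraries (1.32-fold in means, log2 fold change 0.39, SE 0.06, adjusted p = 0.00605). Srebf1 stood at 52.1, 50.3 and 49.4 TPM in the Control libraries and 72.1, 68.1 and 67.8 TPM in the knockout libraries (1.37-fold in means, log2 fold change 0.45, SE 0.05, adjusted p = 0.00271). Both transcription factor genes had narrow Control groups, no overlap between groups, and the same call under every alternative run. The ratio of Srebf2 to Srebf1 was 1.44 ± 0.0456 in Control and 1.38 ± 0.125 in knockout libraries (SD, n = 3 each), with overlapping values. The table gives 1 value per gene, so the transcript forms of Srebf1 were not told apart.

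The retention genes went opposite ways. Insig1, itself a well-known SREBP target, stood at 86.0, 88.9 and 83.7 TPM in the Control libraries and 105, 109 and 149 TPM in the knockout libraries (log2 fold change 0.47, SE 0.13, adjusted p = 0.0306). Knockout replicate 3 was far above the rest and widened the spread, and the call was lost without Control replicate 1, 2 or 3 or with neither the trend nor the robust step in the variance model, while without knockout replicate 3 adjusted p was 0.00583. Insig2, whose transcription is known to depend less on SREBPs, stood at 40.8, 40.3 and 41.2 TPM in the Control libraries and 34.3, 32.3 and 30.3 TPM in the knockout libraries. All its knockout values lay below all its Control values (log2 fold change -0.33, SE 0.06, adjusted p = 0.00832), and it was the 1 gene of the set that fell. The ratio of Insig1 to Insig2, chosen after the values were seen, was 2.11, 2.21 and 2.03 in Control and 3.07, 3.38 and 4.92 in knockout replicates 1 to 3. Scap, the escort, stood at 14.7, 13.6 and 12.9 TPM in the Control libraries and 16.6, 15.7 and 18.4 TPM in the knockout libraries (log2 fold change 0.28, SE 0.08, adjusted p = 0.0393), a call that was lost without each of the 6 libraries in turn and under both scalings. Stard4, which carries cholesterol between membranes, stood at 30.7, 35.8 and 33.1 TPM in the Control libraries and 43.1, 45.7 and 49.96 TPM in the knockout libraries (log2 fold change 0.47, SE 0.08, adjusted p = 0.00716), and its call held in every alternative run.

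**Figure D4:**
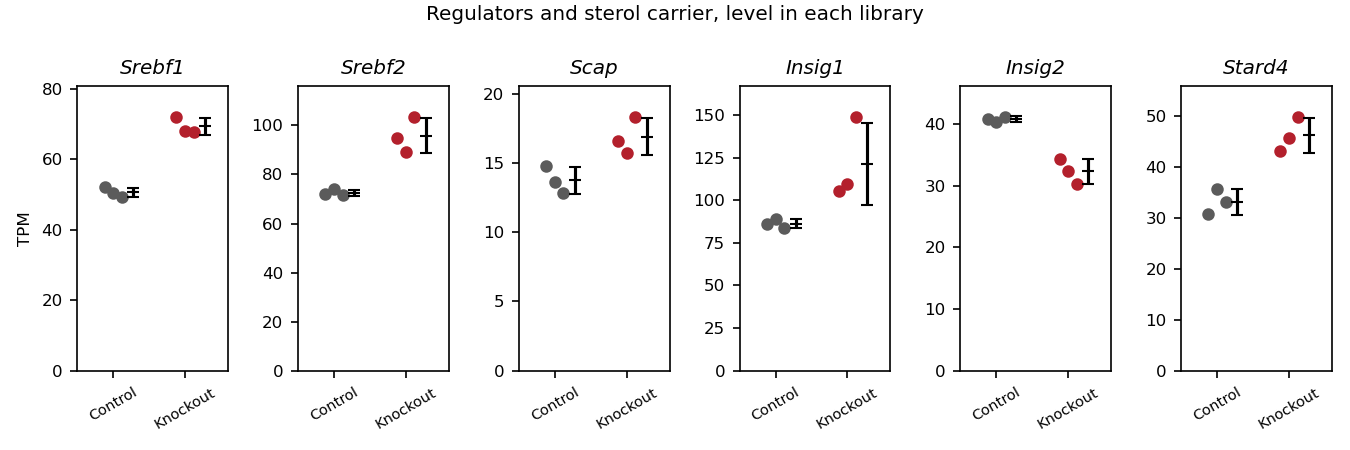
TPM of the 6 regulator and carrier genes in each library, with the mean and SD of each group (n = 3) beside the points. Insig2 is lower in the knockout group, the other 5 genes are higher, and the wide bar of Insig1 comes from 1 library at 149 TPM.

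In the fatty acid arm 8 of 10 genes rose and 0 fell, against 18.5% and 10.1% of all tested rows, leaving 2 not called. Its median log2 fold change was 0.66. Fasn, the synthase that builds palmitate, and Scd2, a desaturase, had the largest rises of all 35 genes, at ranks 62 and 70 among 13034 fold changes. The supply of acetyl-CoA was split. Acly, which cuts citrate to acetyl-CoA, stood at 197, 206 and 196 TPM in the Control libraries and 251, 249 and 272 TPM in the knockout libraries (log2 fold change 0.36, SE 0.05, adjusted p = 0.0049). Acss2, which makes acetyl-CoA from acetate, was low and not called, at 9.57, 8.20 and 8.09 TPM against 8.89, 8.35 and 6.51 TPM (log2 fold change -0.12, 95% confidence interval -0.41 to 0.18, adjusted p = 0.514 by limma). Its groups overlapped, and without knockout replicate 3 its log2 fold change was 0.0022.

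Acaca, whose product makes malonyl-CoA in the committing step, stood at 20.1, 23.1 and 21.2 TPM in the Control libraries and 28.9, 29.1 and 32.7 TPM in the knockout libraries (log2 fold change 0.48, SE 0.07, adjusted p = 0.00602). Of its 50-base words 30.4% occur in other genes, mainly the gene model Gm5182. Fasn stood at 47.6, 57.7 and 52.7 TPM in the Control libraries and 99.6, 99.9 and 144 TPM in the knockout libraries (2.18-fold in means, log2 fold change 1.09, SE 0.15, adjusted p = 0.00447). Even the lowest knockout value was well above the highest Control value, and knockout replicate 3 stood far above the other libraries. Without knockout replicate 3 Fasn was still called (adjusted p = 0.00155).

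Both elongase genes rose. Elovl5, which lengthens polyunsaturated chains, stood at 71.9, 83.2 and 81.0 TPM in the Control libraries and 117, 122 and 127 TPM in the knockout libraries (log2 fold change 0.63, SE 0.07, adjusted p = 0.00264). Elovl6, which lengthens palmitate to stearate, stood at 16.7, 17.8 and 17.4 TPM in the Control libraries and 25.1, 27.6 and 33.4 TPM in the knockout libraries (log2 fold change 0.69, SE 0.10, adjusted p = 0.00519). For both genes every knockout value lay above every Control value, and knockout replicate 3 was the highest library.

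The desaturases include the most abundant transcript of the set and one that hardly differed. Scd2 stood at 407, 480.3 and 437 TPM in the Control libraries and 854, 864 and 1017 TPM in the knockout libraries (2.07-fold in means, log2 fold change 1.04, SE 0.09, adjusted p = 0.00142). Scd1, which makes oleate from stearate, stood at 90.0, 104 and 95.5 TPM in the Control libraries and 149.5, 157 and 164 TPM in the knockout libraries (1.62-fold in means, log2 fold change 0.69, SE 0.07, adjusted p = 0.00211). Scd2 was thus above Scd1 in every library, 4.57 ± 0.0440-fold in Control and 5.81 ± 0.346-fold in knockout libraries (SD, n = 3 each). Of the 50-base words of Scd1 4.56% and of Scd2 3.97% occur in other genes, so the pair could be told apart over most of its length. Fads2, which opens the synthesis of long polyunsaturated fatty acids, stood at 155, 186 and 162 TPM in the Control libraries and 261, 263 and 317 TPM in the knockout libraries (log2 fold change 0.74, SE 0.10, adjusted p = 0.00415). Fads1, the desaturase that acts later in the same series, stood at 157, 159.6 and 157 TPM in the Control libraries and 167, 167 and 166 TPM in the knockout libraries. Its knockout values lay just above its Control values, and it was not called (log2 fold change 0.08, 95% confidence interval -0.01 to 0.17, adjusted p = 0.16 by limma). Fads2 over Fads1, a pair chosen after the values were seen, gave 0.986, 1.16 and 1.03 in Control and 1.56, 1.57 and 1.91 in knockout replicates 1 to 3, with no test.

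Set side by side, the sterol arm had 14 of 19 genes called higher (73.7%) and the fatty acid arm 8 of 10 (80.0%). Of all tested rows 18.5% were called higher. Median log2 fold changes were 0.43 and 0.66, but single genes overlapped widely, from 0.13 to 0.90 in the sterol arm and from -0.12 to 1.09 in the fatty acid arm. Within each knockout library the median sterol gene stood at 0.34, 0.35 and 0.62 above its Control mean on the log2 scale, and the median fatty acid gene at 0.54, 0.64 and 0.73. The fatty acid median was the higher in 3 of 3 knockout libraries, and the difference between arms was not tested. Summed TPM of the sterol arm was 699, 765 and 734 in Control and 940, 953 and 1184 in knockout replicates 1 to 3. The fatty acid arm summed to 1172, 1326 and 1227 TPM in Control and to 1963, 1987 and 2281 TPM in knockout replicates 1 to 3, of which Scd2 alone gave 407 to 480 TPM and 854 to 1017 TPM. With 1 library left out in turn the sterol arm had 8 to 15 calls and the fatty acid arm 8 each time. The fewest sterol calls came without Control replicate 1, where calls of higher genes over the whole table also went from 2406 to 1408 and the sterol median was 0.42.

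Genes around the pathway were taken from lists set beside it, and their counts are to be read against the 18.5% of all tested rows that rose and the 10.1% that fell. In the non-sterol isoprenoid branch Pdss1, of ubiquinone side chain synthesis, rose by 0.44, a call lost without Control replicate 1 or 3. Ggps1, which makes geranylgeranyl diphosphate, was not called (-0.21) but was called lower under both scalings. Among 12 tested genes of SREBP processing, turnover and oxysterol synthesis 3 rose (25.0%, against 18.5% of all tested rows) and 4 fell, with a median of 0.07 against 0.04 over all rows. Mbtps1, the first protease that cuts SREBPs, rose from 28.2 ± 0.112 to 34.2 ± 2.13 TPM (SD, n = 3 each), a call lost without Control replicate 3, and the other rises were Rnf145 (0.22) and Pgrmc1 (0.20). Paqr3, which anchors SCAP and SREBP at the Golgi, fell from 6.85 ± 0.797 to 3.72 ± 0.560 TPM and Erlin1, an endoplasmic reticulum lipid raft protein, from 107 ± 1.20 to 73.5 ± 3.68 TPM. Cyp27a1, which makes an oxysterol, fell by 0.42, a call lost without Control replicate 1, 2 or 3. Syvn1, a ubiquitin ligase of the endoplasmic reticulum, fell by 0.20, a call lost without 5 of the 6 libraries in turn (knockout replicate 3 being the exception). Pgrmc1 lost its call without Control replicate 1 or 3 or knockout replicate 2, and Rnf145 without each of the 6 libraries in turn and under both scalings. Ch25h, the LPS-inducible enzyme that makes an oxysterol inhibitor of SREBP processing, was too low to test, with 2.55, 0.719 and 0.184 TPM in the Control libraries, 0.402, 0.184 and 0.257 TPM in the knockout libraries, and Control replicate 1 far above the others.

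Of 9 other tested SREBP-responsive genes 3 rose (33.3%, against 18.5% of all tested rows) and 0 fell, while 2 of 9 rose after median-of-ratios scaling and 2 of 8 by limma-voom. On the deposited scale these were Lpin1 (0.56), a phosphatidate phosphatase gene, Pcyt2 (0.48), of phosphatidylethanolamine synthesis, and Tmem97 (0.40), a sterol-binding protein gene whose call was lost without Control replicate 1, 2 or 3 or knockout replicate 2 and under both scalings. Of 15 other genes of fatty acid elongation, desaturation and activation 5 rose (33.3%, against 18.5% of all tested rows) and 1 fell (against 10.1% of rows), with a median of 0.10 against 0.04 over all rows. Acsl5, which activates fatty acids, rose by 0.50, and the elongation cycle dehydratase genes Hacd2 and Hacd1 by 0.38 and 0.37, while Acsl1, another activating enzyme, fell by 0.24. Hacd1 lost its call without Control replicate 1 or 3 or knockout replicate 1, and Acsl1 without Control replicate 2. LXR, the oxysterol receptor, is a known activator of Srebf1 transcription. Of 6 genes of LXR and its targets 3 rose (against 18.5% of all tested rows) and 0 fell: the exporters Abcg1, from 35.3 ± 2.05 to 66.2 ± 3.73 TPM, and Abca1, from 12.5 ± 0.513 to 23.8 ± 4.39 TPM, and Lpcat3 (0.26), a phospholipid remodelling gene whose call was lost without Control replicate 1 or 3 or knockout replicate 2. The LXR genes themselves were not called, Nr1h3 at 0.18 and Nr1h2 at -0.22, the latter called lower under both scalings.

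Cell cycle genes moved in the same libraries. All 10 listed genes rose, against 18.5% of all tested rows. Their median log2 fold change was 0.88, above the medians of both arms, and over all tested rows it was 0.04. Rrm2, of nucleotide synthesis, rose from 146 ± 22.6 to 312 ± 55.7 TPM, Ccna2, a cyclin, from 43.0 ± 5.08 to 90.2 ± 16.6 TPM, and the proliferation marker Mki67 from 76.6 ± 9.76 to 145 ± 18.2 TPM (SD, n = 3 each). Knockout replicate 3 was the highest library for 10 of these 10 genes and Control replicate 1 the lowest for 10 of 10, the same libraries that were highest and lowest for most of the sterol and fatty acid genes. Over all tested rows knockout replicate 3 was highest for 31.1%, and the share for Control replicate 1 was not counted. The part of the cell cycle difference in the sterol and fatty acid results was not tested.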

How the data were processed

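RNA from 6 libraries of LPS-treated mouse macrophages was measured, 3 Control and 3 Knockout, grouped by the labels. The authors deposited 1 table of gene values on the TPM scale, a unit inferred from library sums of 991721 to 998572. Per the submitters' processing notes the tools and builds include DESeq2 and GRCm39, whose use is not described. Aligner, counter and annotation are not given in the sources used here. Read counts were recovered from the deposited TPM values and GENCODE M21 gene lengths: values of 16481 rows (95.7%) were whole reads in all 6 libraries, within 0.02 read. Values were tested as log2(TPM + 1) with limma 3.58.1 (trend and robust) in R 4.3.3, after a filter of a mean of at least 1 TPM, and summarised in Python 3.11.15. P-values were two-sided and Benjamini-Hochberg adjusted over 13034 rows. The fit was also run on simulated data with 200 changed genes, a fixed spread between libraries and no batch difference. That run cannot show how the fit handles the batch or the spread of these libraries. Shared sequence was counted as 50-base words found in other GENCODE M21 genes. The members and all gene lists were chosen with earlier results of these data known. Values per library are given for called members with a log2 fold change of at least 0.3 in size and for all regulators. Alternatives were the pseudocount, the filter, 2 scalings, limma-voom on recovered reads, the variance model, a replicate block and leaving out each library. A further alternative left out the 34 rows whose ratio departed from that of their neighbours in the deposited order. A result of the isoprenoid branch is not reported here.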

Additional observations from a re-analysis of the deposited data

How the results depend on the processing

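Under the 16 alternatives, 23 of 35 members kept their call and direction in all settings, and 558 of 559 member values kept their direction. The exception was Acss2, not called, whose log2 fold change was -0.12 with all libraries and ran from -0.20 to 0.0022 with 1 left out, the positive value without knockout replicate 3. With 1 library left out in turn, genes called higher numbered 1313 to 2096 and genes called lower 669 to 1219, against 2406 and 1313 with all 6. Called higher were then 8 to 15 of 19 sterol arm genes, 3 to 4 of 6 regulators and 8 to 8 of 10 fatty acid genes. With no trend and no robust fit 3 regulators were called higher. Fdft1 was called with a filter at a mean of 5 TPM (adjusted p = 0.0420 by limma), and Fdft1 and Ebp were called with the replicate block (0.0493 and 0.0418) and without knockout replicate 1 (both 0.0360). Fdps had no value under the 5 TPM filter. Same-numbered libraries correlated at 0.13, -0.08 and 0.03 in their deviations, so the numbers were not taken as a pairing. With the replicate block 2331 genes were called higher and 1380 lower, among them 15 sterol arm genes, 4 regulators and 8 fatty acid genes higher and 1 regulator lower. Few reads, at 73 to 330 per library, and sequence shared with Gm43738 limit Fdps. Batch was not separable from genotype under any alternative.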
